A study of Mus musculus with 12 samples.

Results

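Open chromatin of microglia, the resident macrophages of the brain, was compared between 14 and 3 months of age after lipopolysaccharide (LPS) injection. The comparison used 4 libraries, 2 titled 14month,LPS and 2 titled 3month,LPS, out of 12 in the series. Accessible regions were measured by ATAC-seq, in which a transposase cuts DNA that is not packed into closed chromatin, and the deposited data are lists of peaks called per library. Because one of the 14-month lists was short, all 4 lists were cut to 28578 peaks by the area score of each peak, and peaks that shared 1 bp were merged into 32023 regions. Of these, 530 were called in both 14-month lists and in neither 3-month list (gained), and 740 were called in both 3-month lists and in neither 14-month list (lost). The study asked how female microglia age and how age changes their response to an inflammatory stimulus. The remaining 8 libraries (LPS at 24 months, and phosphate-buffered saline (PBS) at 3, 14 and 24 months, 2 of each) were used to read out regions chosen in the 4 and, where said, to pick regions by their calls after PBS.

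All mice were wild-type C57BL/6J females and all received LPS by intraperitoneal injection. Of the labelled factors only age differed between the groups, at 3 or 14 months. Microglia of 2 to 3 mice were pooled per library, and a library therefore is a pool and not a single animal. The methods describe microglia sorted as CD11b+ CD45low cells, whereas the labels also describe nuclei from frozen tissue, and no interval after injection is given here because the sources differ. In each of the 4 equal-length lists, 13 of 15 microglia marker genes had a peak within 1 kb of a transcription start site (TSS). Of the markers of other cells, none of 14 monocyte and macrophage, 17 lymphocyte, 10 astrocyte and 12 neuron genes had one, and 1 of 14 granulocyte genes (Csf3r) did in each list. Oligodendrocyte markers had a promoter peak at 4 and 4 of 12 genes in the 3-month lists and at 3 and 2 in the 14-month lists, and endothelial markers at 3 and 3 of 12 against 2 and 3. Mbp had a promoter peak in both 3-month lists and the first 14-month list, and Mog in both 3-month lists only, so that the Mog promoter was itself a lost region. Of regions nearest to monocyte and macrophage markers, 1 of 5 was gained (Vcan) and 1 lost (Ccr2), and of those nearest to lymphocyte markers 1 of 14 was gained (Klrb1c). The part of these cells in the results was not tested.

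LPS is bound by Toll-like receptor 4, whose signal reaches the nucleus through NF-kB factors, held back by inhibitors of the IκB family until they are degraded, and through kinase cascades that act on AP-1, a dimer of Fos and Jun proteins. In microglia these factors bind mostly at distal elements that lineage factors such as PU.1 keep open, while promoters of housekeeping genes are GC-rich, often hold SP1 sites and are open in most states. A distal element is assigned here to the gene with the nearest TSS, which need not be the gene it acts on.

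Gained regions held the AP-1 consensus more often than any other set examined, and the highest-ranked examples show what such a region looks like. The windows below are 61 bases of mm10, read from the RefSeq assembly GRCm38.p6 on the plus strand, and capitals mark the match to TGANTCA. They come from 6 of the gained regions that ranked highest among those with a match, a choice made after the values were seen. The windows lie at chr10:81143307-81143367 (first intron of Zbtb7a, which encodes a transcriptional repressor), chr3:84598016-84598076 (an intron of Gm37240, with Tigd4 as the nearest gene), chr6:86784952-86785012 (first intron of Anxa4, a membrane-binding annexin), chr14:120324300-120324360 (first intron of Mbnl2, a splicing regulator), chr13:94184900-94184960 (first intron of Lhfpl2) and chr8:94802479-94802539 (intergenic, 7.92 kb upstream of Ccl17, a chemokine).
Zbtb7a: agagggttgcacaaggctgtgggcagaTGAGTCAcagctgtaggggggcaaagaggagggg
Tigd4: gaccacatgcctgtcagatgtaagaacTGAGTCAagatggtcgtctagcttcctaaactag
Anxa4: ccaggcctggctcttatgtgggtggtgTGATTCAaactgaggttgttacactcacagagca
Mbnl2: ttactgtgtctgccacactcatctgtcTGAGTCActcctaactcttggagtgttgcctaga
Lhfpl2: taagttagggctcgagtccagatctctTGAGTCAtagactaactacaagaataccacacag
Ccl17: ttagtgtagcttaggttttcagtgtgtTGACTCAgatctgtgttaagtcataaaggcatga

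These regions ranked above most gained regions, yet mostly in the lower part of the 14-month lists. On a scale from 0 to 100, the percentile of the area score within the list, the Zbtb7a region stood at 51.1 and 29.6 in the 14-month libraries, and its peaks in the uncut 3-month lists, at 25.9 and 14.3 of those lists, fell below the cut. It was called in none of the 8 other libraries. The regions of Tigd4 (35.9 and 38.8), Anxa4 (32.6 and 20.2), Mbnl2 (33.03 and 19.7) and Lhfpl2 (23.7 and 27.6) stood between 19.7 and 38.8. The Ccl17 region stood at 16.8 and 34.1, with peaks below the cut at 26.0 and 6.76 of the full 3-month lists. None of the 6 was without any peak at 3 months.

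Matches to the NF-kB consensus were also more frequent in gained than in lost regions. Examples chosen in the same way were those in Anxa4 (chr6:86784873-86784933) and Lhfpl2 (chr13:94184687-94184747), which thus held both motifs, and one in an intron of Kif21b, a kinesin motor gene (chr1:136161581-136161641). Capitals mark the NF-kB matches, and overlapping matches are joined. The Kif21b region stood at 18.8 and 22.2 in the 14-month lists and was called in all 4 PBS lists of 3 and 14 months, unlike those of Anxa4 and Lhfpl2, which were called in none of them.
Anxa4: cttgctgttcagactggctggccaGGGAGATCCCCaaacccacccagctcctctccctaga
Lhfpl2: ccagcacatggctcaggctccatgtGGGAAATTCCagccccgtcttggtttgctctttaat
Kif21b: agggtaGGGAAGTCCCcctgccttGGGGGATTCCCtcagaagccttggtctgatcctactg

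Lost regions were more often promoters, and SP1 consensus matches were among the motifs they held more often than gained regions. Examples with a match and no annotated exon in the window, again of high rank, were those of Tmem110 (chr14:30825499-30825559), Zfp710 (chr7:80027084-80027144) and Ckap2, which encodes a spindle protein (chr8:22185824-22185884). They stood at 38.5 and 35.5, 39.4 and 32.4, and 30.6 and 35.8 in the 3-month lists, had a peak below the cut in the first 14-month list and were called in all 8 other lists. Capitals mark GGGCGGGG or its reverse complement.
Tmem110: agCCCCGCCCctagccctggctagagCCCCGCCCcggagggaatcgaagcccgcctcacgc
Zfp710: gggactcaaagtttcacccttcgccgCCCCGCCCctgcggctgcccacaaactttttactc
Ckap2: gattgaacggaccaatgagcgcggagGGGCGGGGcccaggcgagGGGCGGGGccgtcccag

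The 4 lists shared most of their regions, and the age sets were a small fraction of them. Before the cut the 3-month lists held 39433 and 38531 peaks and the 14-month lists 36699 and 28578, a mean of 38982 ± 638 against 32638.5 ± 5742 (SD, n = 2 each). After it, 24371 of 32023 regions were called in all 4 lists. Gained regions were 1.66% of all regions and lost regions 2.31%, and a further 1007 regions were called in 1 library of each age, an arrangement that age does not order. The Jaccard index, the share of the regions of either list that both lists call, was 0.884 for the 3-month pair and 0.869 for the 14-month pair, against 0.838 to 0.866 across ages. Each pair of the same age thus overlapped slightly more than any pair across ages at this length. At full length the 3-month pair was at 0.869 and the 14-month pair at 0.761, below the 0.836 and 0.854 of the first 14-month list with the 3-month lists.

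The balance of gained and lost regions depended on the cut. With the lists at full length, 48 of 42274 regions were gained (0.114%) and 2481 were lost (5.87%). Most members had a weak peak at the other age: among gained regions 460 of 530 had a peak below the cut in both 3-month lists, 59 in 1 of them, and 11 in neither. Among lost regions 629 of 740 had a peak below the cut in the first 14-month list, none could have one in the second, whose list was not cut, and 111 had none. Members ranked low where they were called, with a median percentile of 9.79 and 11.2 in the 14-month lists for gained regions and of 11.6 and 9.42 in the 3-month lists for lost regions. The lower of the 2 percentiles was under 10 in 70% of gained and 67.2% of lost regions. At the cut, the area score of the last peak kept and the first left out was 353.96 and 353.948 in the first 3-month list, 334.895 and 334.884 in the second, and 315.041 and 315.009 in the first 14-month list. Gained and lost regions were thus mostly regions of low rank on either side of the cut, and few were without any peak at the other age. With 2 libraries against 2, the smallest two-sided p of an exact permutation test is 1 in 3, and no test of single regions was made on these calls.

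Gained and lost regions differed in where they lay. Of gained regions 11.7% were promoters (within 1 kb of a TSS), against 39.2% of lost regions, 15.9% of those called in 1 library of each age and 37.2% of all regions. Gained regions lay in first introns (24.7%), other introns (28.1%) and intergenic sequence (30.6%), at a median distance of 9.83 kb from a TSS, and lost regions at 2.56 kb. Both were narrower than the median of all regions (475 bp), at 304.5 bp for gained and 387.5 bp for lost regions, and their median GC content was 49.8% and 52.5%, against 53.2% for all. With 1 library left out the promoter share was 11.8% to 14.5% of gained and 30.9% to 34.8% of lost regions, which did not overlap. The distal character of gained regions was thus shared with the regions called in 1 library of each age, while lost regions had about the promoter share of all regions at this list length, and 21.6% at full length.

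Of the 15 motifs, AP-1 had the largest difference in share between gained and lost regions. The consensus occurred within 150 bp of the summit in 155 of 530 gained regions (29.2%) and in 54 of 740 lost regions (7.30%), against 12.1% of regions called in 1 library of each age and 13.9% of all 32023 regions. With 1 library left out the share was 21.9% to 27.7% of gained and 7.32% to 8.09% of lost regions, and over all settings tried, full-length lists included, 19.8% to 35.4% against 5.51% to 8.28%. All settings draw on the same 4 lists, so these ranges are not independent support. The order was the same at both positions. Among distal regions 29.5% of gained and 9.11% of lost regions held a match (18.4% of all distal regions), and among promoters 27.4% (17 of 62) and 4.48% (13 of 290; 6.38% of all promoters). Gained regions above the median rank held it in 36.6% and those below in 21.9%.

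**Figure D1:**
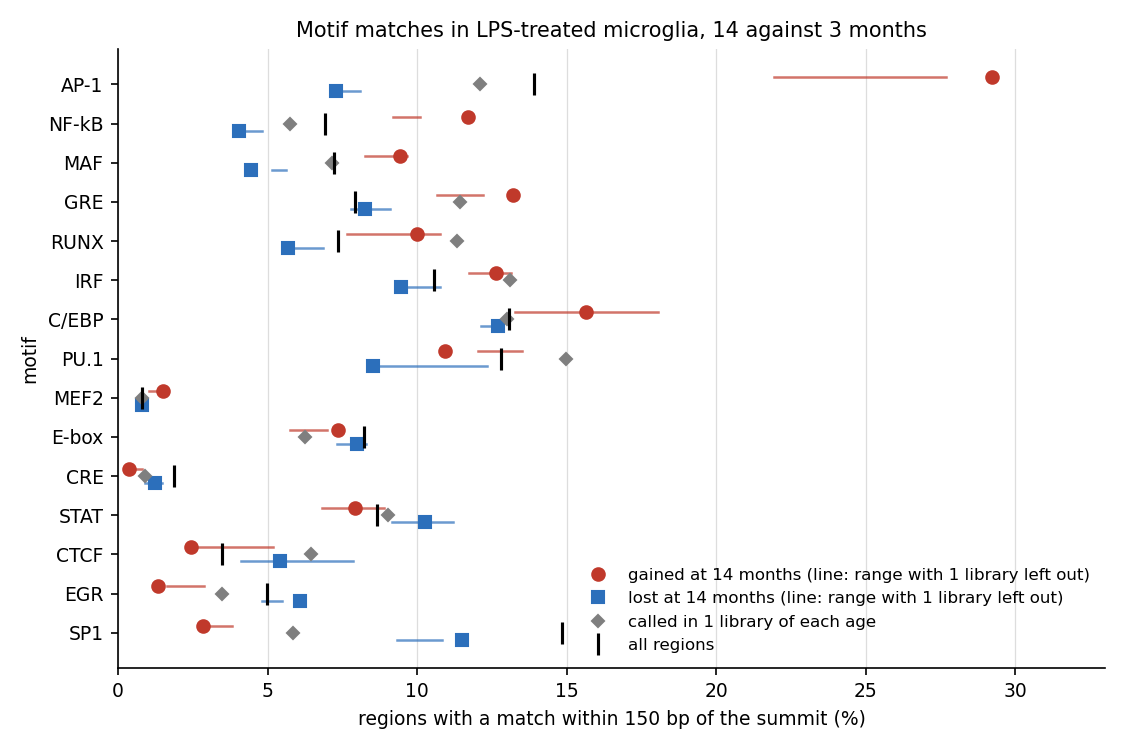
Share of regions with a match to each of 15 consensus motifs within 150 bp of the summit (x axis, percent; y axis, motif), for gained (circles), lost (squares), regions called in 1 library of each age (diamonds) and all regions (short black lines); horizontal lines give the range with 1 of the 4 libraries left out. For AP-1, gained regions stood at 29.2% and lost regions at 7.30%, on either side of the 13.9% of all regions.

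**Figure D2:**
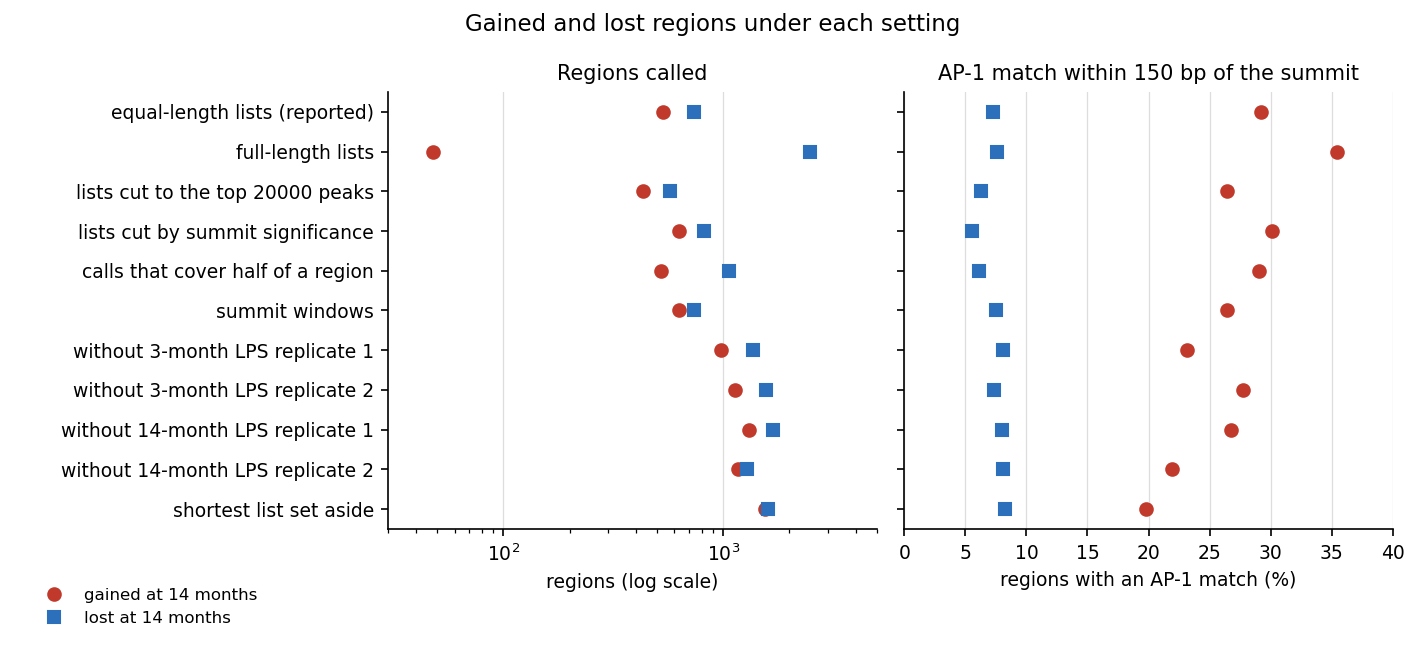
Number of gained and lost regions (left, log scale) and their share with an AP-1 match (right, percent) under each setting (y axis); circles are gained and squares lost regions. The counts ranged from 48 to 1547 and from 576 to 2481, while the AP-1 shares did not overlap between the sets.

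The NF-kB consensus, bound by Rel family dimers, had the same order. It occurred in 11.7% of gained, 4.05% of lost, 5.76% of mixed (1 library of each age) and 6.93% of all regions, and the shares with 1 library left out were 9.20% to 10.1% and 3.94% to 4.82%. AP-1 and NF-kB matches occurred together in 17 gained and 2 lost regions, and at least 1 of the 2 in 37.7% and 11.1%. The glucocorticoid receptor half-site pair ACANNNTGT (13.2% and 8.24%, all regions 7.93%) and the MAF motif TGCTGAC (9.43% and 4.46%, all regions 7.22%) were more frequent in gained than in lost regions too, although mixed regions held the first of them in 11.4%. The motif of PU.1, AGAGGAAG, the lineage factor of microglia, was no more frequent in gained (10.9%) than in all regions (12.8%), and was at 8.51% in lost regions. With 1 library left out the PU.1 shares of gained (12.02% to 13.5%) and lost regions (8.71% to 12.3%) overlapped. RUNX matches occurred in 10% of gained, 5.68% of lost and 11.3% of mixed regions. C/EBP, IRF and STAT matches occurred in 15.7%, 12.6% and 7.92% of gained and 12.7%, 9.46% and 10.3% of lost regions. E-box (7.36% and 7.97%), MEF2 (1.51% and 0.811%) and CRE matches (0.377% and 1.22%) differed by at most about 1 percentage point.

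Motifs of GC-rich promoters were more frequent in lost than in gained regions. SP1 matches occurred in 11.5% of lost and 2.83% of gained regions (9.32% to 10.8% and 3.04% to 3.81% with 1 library left out), and EGR matches (GCGTGGG) in 6.08% and 1.32%. Of all regions, 14.8% held SP1 and 4.98% EGR matches, so that the SP1 share of lost regions was below that of all regions. Within promoters, SP1 matches occurred in 22.1% of lost and 33.1% of all regions. The CTCF consensus, which marks insulator sites, was at 5.41% of lost and 2.45% of gained regions, and at 6.45% of mixed regions, and with 1 library left out its shares of gained (2.48% to 5.18%) and lost regions (4.11% to 7.85%) overlapped. A match is a string in the sequence and not a bound site.

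Most regions gained after LPS were not called in PBS-treated microglia at the same list length. Cut to the same length, neither 3-month PBS list called 64.0% of gained regions and neither 14-month PBS list 57.9%. For lost regions these shares were 25.8% and 28.1%. Both 3-month PBS lists called 57.0% of lost regions and both 14-month PBS lists 51.9%. Both lists of these ages called 23.8% and 29.8% of gained, 43.5% and 42.5% of mixed and 79.2% and 79.6% of all regions. Regions called in 1 library of each age, also of low rank, were called in neither 3-month PBS list in 38.2% and in neither 14-month PBS list in 36.3%, and over all regions neither 3-month PBS list called 14.7%. At full length, 185 of the 530 gained regions had no peak in either 3-month PBS list and 140 none in either 14-month PBS list, while 313 had one in both 14-month PBS lists, so most gained regions had a peak of some rank after PBS. AP-1 followed this split: 40.4% of the 307 gained regions without a call in 14-month PBS held a match, against 12.03% of the 158 called in both 14-month PBS lists. Among mixed regions the same split gave 23.5% and 5.14%, and among lost regions 12.98% and 5.21%, so matches were more frequent without a PBS call in all 3 sets and most frequent in the gained one.

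The change with age was rarely repeated between the PBS lists. Of gained regions, 32 were also called in both 14-month and neither 3-month PBS list, and 5 in the reverse arrangement. The 32 are 6.04%, against 3.18% of mixed regions, also of low rank, and 1.01% of all regions. Of lost regions, 21 were also lost in PBS (2.84%, against 1.99% of mixed and 0.687% of all regions) and 7 were gained there. Most members therefore had no age pattern in PBS under this rule.

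At 24 months after LPS, gained regions were called in both lists less often than regions called in 1 library of each age. Both 24-month LPS lists called 48 of 530 gained regions (9.06%), 1 list called 232 and neither called 250 (47.2%), and the first list called 37.4% and the second 24.5%. Regions called in 1 library of each age were called in both lists in 24.5% and in neither in 24.2%. Over all regions, both 24-month LPS lists called 78.7% and neither called 7.35%. Lost regions were called in both 24-month LPS lists in 46.9% (347 of 740) and in neither in 11.2% (83). Both lists thus called lost regions less often than all regions and more often than those called in 1 library of each age. With 1 library left out, the share of gained regions in both 24-month lists ranged from 6.39% (without the first 14-month library) to 21.6% (without the first 3-month library; 25.1% with summit windows), and the share of lost regions in neither from 7.26% to 23.6% with the same library and the second 3-month library left out. In full-length lists, which carry weaker peaks, both 24-month LPS lists held a peak in 270 of the 530 gained regions. A region that was not called may thus be open below the cut.

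**Figure D3:**
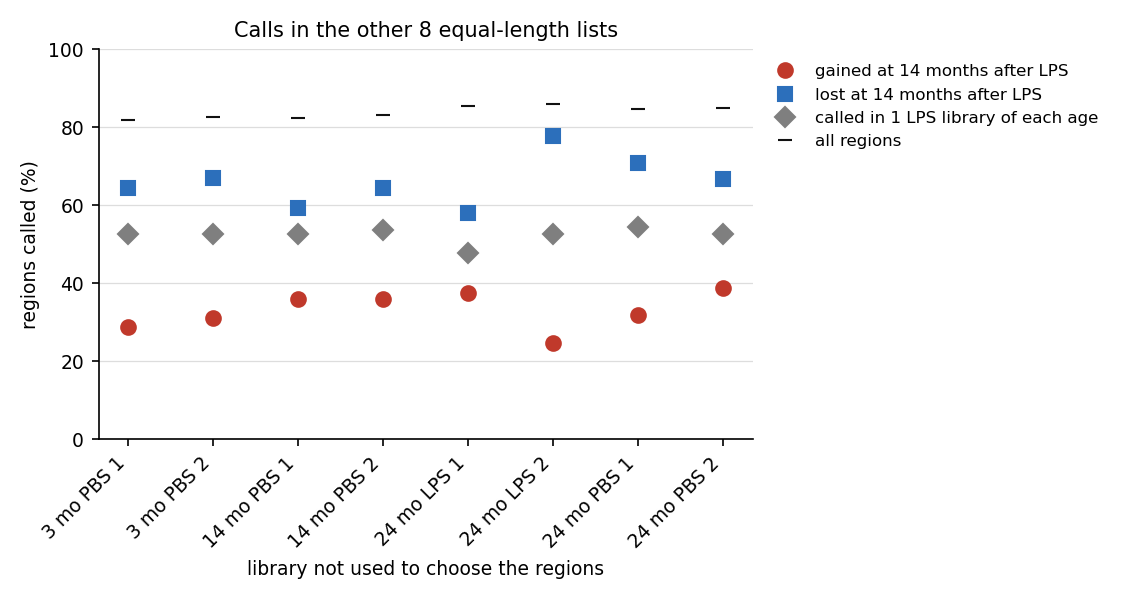
Share of regions called (y axis, percent) in each of the 8 equal-length lists that were not used to choose them (x axis), for gained (circles), lost (squares), mixed (diamonds) and all regions (dashes). Gained regions lay between 24.5% and 38.7% and lost regions between 58.0% and 77.7%, on either side of the mixed regions. All regions lay higher, between 81.8% and 85.9%.

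Most regions called only after LPS at 3 months were also called after LPS at 14 months. Of 1963 regions called in both 3-month LPS and neither 3-month PBS list, 76.9% were called in both 14-month LPS lists, 13.4% in 1 and 9.73% (191) in neither. Of the lost set, 25.8% were called in neither 3-month PBS list. The AP-1 consensus occurred in 15.2% of these, and in 4.50% of the 422 lost regions that both 3-month PBS lists called. Of 1619 regions called only in PBS at 3 months, 125 (7.72%) were called in both 14-month LPS lists.

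The named gained regions include 3 with no peak in either 3-month LPS list at any rank. Regions were named if they were also gained at full length with a protein-coding nearest gene, or if the nearest gene belonged to one of 12 lists (at most 4 regions per list and direction). The strongest of the first kind was an intronic region of Mepe, a bone matrix gene (chr5:104330985-104331935), at percentiles of 36.1 and 34.0 in the 14-month LPS lists. It had no peak in the 3-month LPS lists at any rank, although it was not gained when lists were cut by summit significance. PBS libraries called it at a percentile of 8.41 in the first 3-month and 3.90 in the first 14-month list. The first-intron region of Acvr2b, an activin receptor (chr9:119404104-119404412, with an AP-1 match), stood at 11.1 and 15.1 in the 14-month LPS lists and was called in all 4 PBS lists of 3 and 14 months. A region in Rap1gap, which encodes a GTPase activator of Rap1 (chr4:137724147-137724494, with an NF-kB match), stood at 12.3 and 12.5 in the 14-month LPS lists. The Rap1gap region was also called in the second 3-month PBS list (6.19), the first 24-month LPS list (29.5) and both 24-month PBS lists (17.1 and 39.2). The Mepe region thus ranked well above the other two.

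Inhibitors of NF-kB were on both sides. A region 11.96 kb from Nfkbia, which encodes IκBα (chr12:55480472-55481275), stood at 30.5 and 30.9 in the 14-month lists, with no peak in the first 3-month list and one below the cut in the second (20.8 of the full list). It was not called in the PBS lists of 3 and 14 months and was called in both 24-month PBS lists at 48.5 and 34.7. A region near Tnfaip3, which encodes the ubiquitin-editing enzyme A20, was gained at 5.34 and 7.44. On the scale of the full lists it stood at 4.81 and 11.8 at 3 months and at 26.3 and 7.44 at 14 months, which overlap. The promoter of Nfkbid, an atypical IκB (chr7:30422991-30423563), was lost, at 31.2 and 13.01 in the 3-month LPS lists and with no peak in the 14-month LPS lists. It was called in the other 8 lists, at 13.8 and 92.1 in the 24-month LPS lists, so that its rank varied widely between libraries of 1 group. A first-intron region of Nfkbie, another IκB gene, was lost at 8.60 and 10.5. None of the regions in this paragraph kept its call when lists were cut by summit significance.

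Among genes of phagocytosis and lysosomes, 4 of 157 regions were gained (2.55%, against 1.66% of all regions) and 3 lost (1.91%, against 2.31%). None of the 4 was gained at full length. A region near Marco, a scavenger receptor gene, stood at 22.0 and 16.5 and held an NF-kB match. The first intron of Lamp1, a lysosomal membrane protein, was gained at 15.2 and 14.8, also with an NF-kB match, and was called in none of the other 8 lists. A first-intron region of Tfeb, a regulator of lysosomal genes counted with the transcription factors, was gained at 7.22 and 41.6, so its libraries differed widely. Regions at Elmo1 (9.44 and 12.3) and Npc2 (10.6 and 8.53) were gained as well. The Elmo1 region was called in all 8 other lists, and the Npc2 region in 1 3-month PBS and both 14-month PBS lists. On the scale of the full lists, the values of 3 and 14 months overlapped at both of these regions. On the lost side were the promoters of Msr1, a scavenger receptor (2.69 and 9.31), and Stab1 (0.014 and 1.05), both at the foot of the lists. A first-intron region of Ctsb, a lysosomal protease (4.99 and 3.75), was also lost. The Stab1 promoter had no peak in the 14-month LPS lists at full length either.

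Cytokine and receptor genes had single regions in each direction. A region 3.53 kb upstream of Ccl4, a chemokine, was gained at 1.74 and 32.4, and on the scale of the full lists it stood at 23.5 and 32.4 at 14 months and at 17.5 and 25.7 at 3 months, which overlap. The Il1r1 promoter (7.80 and 18.7) and a region near Il21r (8.63 and 20.1) were gained. At Il21r the full-list values of 3 and 14 months overlapped as well. The Il10ra promoter, of the receptor chain for the anti-inflammatory cytokine IL-10, was lost at 19.5 and 25.6 and was called in the other 8 lists. Regions near Ccl5 (1.64 and 4.35), Ccr2 (3.14 and 1.87) and Ptpn1, a phosphatase gene (1.62 and 35.4), were lost. At Ccl4 and Ptpn1 the libraries of the same age were thus far apart, as they were at a lost region in an intron of Best1 whose nearest TSS is that of Fth1, a ferritin gene (3.34 and 64.6).

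Homeostatic genes and transcription factors completed the named members. Both lost regions of the homeostatic list lay upstream of Fcrls, at 27.3 and 7.82 for the distant one and 11.6 and 6.98 for the near one, and a first-intron region of Mef2c was gained at 0.861 and 13.04. The full lists differ in length. On their scale the Mef2c region stood at 25.0 and 24.2 at 3 months and at 22.8 and 13.04 at 14 months, so the 3-month values were the higher. The promoter of Nr4a1, an immediate early gene (4.67 and 7.18), a first-intron region of Fosl2, which encodes an AP-1 subunit (18.7 and 22.8), and the region upstream of Gadd45g (18.1 and 23.2) were lost, and a region in an intron of Eps15l1, with Klf2 as the nearest TSS, was gained at 5.43 and 2.24. Regions of Cebpb (13.6 and 13.3), Arid5b (10.9 and 13.7), Mitf (7.54 and 16.7) and Ikzf1 (5.88 and 14.0) were lost, while a region of Foxp1 (10.7 and 7.30) and the promoter of Nfatc1 (6.85 and 15.1) were gained. The Ikzf1 region was called in all other lists, at 20.1 to 50.4, and the Nfatc1 promoter in all PBS lists of 3 and 14 months. The Klf2 region was called in both 3-month and neither 14-month PBS list. An Itgax region, of the gene for CD11c, was gained at 5.48 and 12.04. On the scale of the full lists, the values of 3 and 14 months overlapped at the regions of Klf2, Foxp1, Nfatc1 and Itgax. Lost regions near Ifit1 (18.4 and 37.4) and Samhd1 (2.74 and 15.2) belong to the interferon list, and the one near H2-DMb1 (8.31 and 1.89) to antigen presentation.

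The lost regions of highest rank were mostly promoters. The 12 given here are the first by rank among those with no peak in either 14-month LPS list at full length. The promoters of Pdf, a mitochondrial peptide deformylase (45.8 and 41.0), Cenps, a kinetochore protein (43.3 and 40.5), and Ppil1, a spliceosome cyclophilin (41.4 and 39.7), led. The Cenps and Ppil1 promoters were called in all other 8 lists, Cenps at 44.7 and 54.3 in the 24-month LPS lists, and the Pdf promoter in 7 of them. Promoters of Dennd1b (36.4 and 29.9), Mbtps2, the site-2 protease (38.8 and 25.8), Tns3 (47.7 and 14.9), Timeless, a replication fork protein (25.1 and 29.1), Vezf1 (32.3 and 15.8) and Cdca7 (17.98 and 21.7) followed, with a first-intron region of Bcor (34.4 and 16.9), one in an intron of Arhgef10 with Kbtbd11 as the nearest TSS (36.99 and 5.20) and Nfkbid, given above. Cut by summit significance, the regions of Pdf, Dennd1b, Mbtps2, Cdca7, Bcor, Kbtbd11 and Nfkbid were not lost. Those of Cenps, Ppil1, Tns3, Timeless and Vezf1 still were. Of the 111 lost regions with no peak in the 14-month LPS lists, 58 were promoters (52.3%). Of the 111, 60 (54.1%) had a peak in all 8 other full-length lists, 36 of them promoters. Those 60 regions lacked a peak in the 14-month LPS lists and in no other of the 12. At equal length, all 8 other lists called 70.0% of all 32023 regions. At full length, 6053 of 42274 regions were missing from the short second 14-month list alone among the 4 compared. Of the 11 gained regions with no peak in the 3-month LPS lists, 1 had no peak in any of the other 8.

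**Figure D4:**
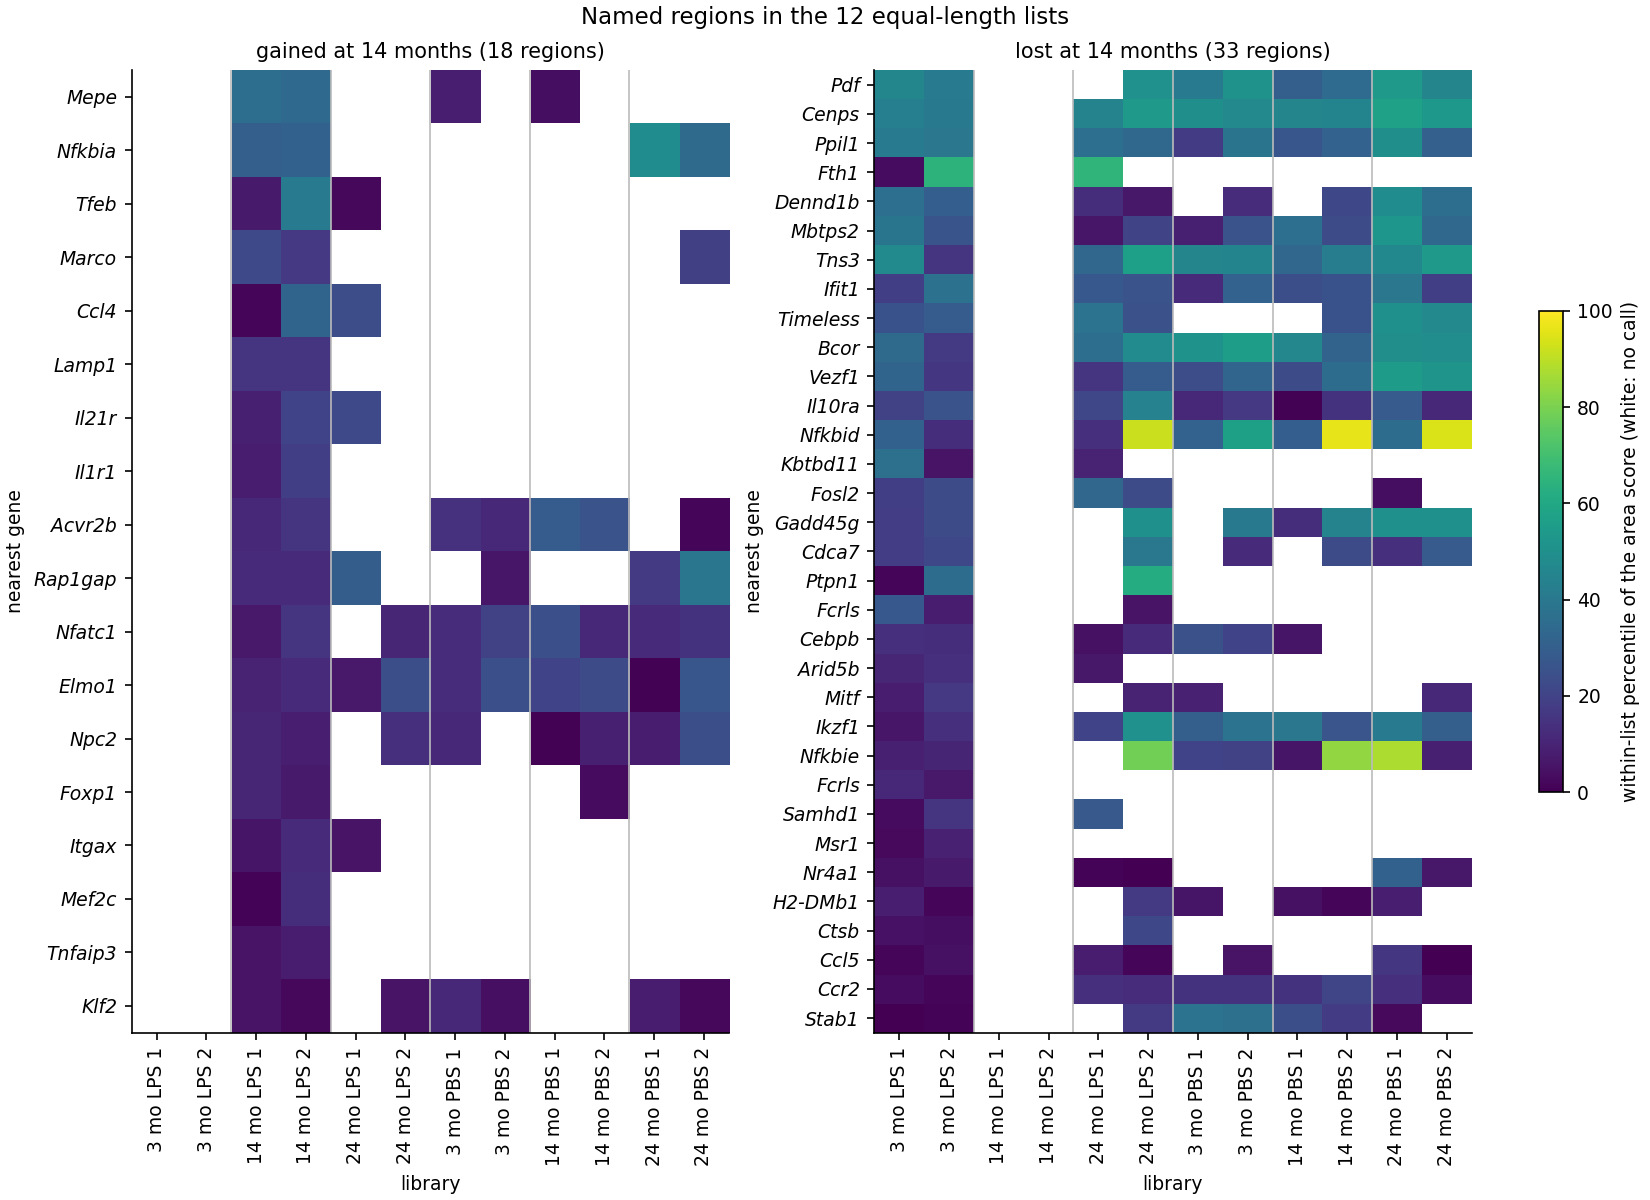
Within-list percentile of the area score (colour, 0 to 100; white, no call) of the named gained (left, 18) and lost (right, 33) regions in the 12 equal-length lists, 1 row per region by nearest gene and 1 column per library. Calls in the first 4 columns follow from how regions were chosen; lost promoters such as those of Cenps and Ppil1 were called in all other 8 lists, whereas the gained Lamp1 region was called in none of them.

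No gene list was a large part of either set. Members were counted against the background of 1.66% gained and 2.31% lost. The largest shares were 2 of 60 regions gained and 2 lost for NF-kB factors and inhibitors (3.33% each) and 5 gained and 11 lost of 247 for myeloid transcription factors (2.02% and 4.45%). Phagocytosis and lysosomes had 4 gained and 3 lost of 157 (2.55% and 1.91%), cytokine receptors and signal inhibitors 2 and 3 of 173, cytokines and chemokines 1 and 1 of 87, immediate early and stress genes 1 and 3 of 141, homeostatic microglia 1 and 2 of 162, and disease-associated microglia 1 and 2 of 76. Interferon response had 0 and 2 of 68 and antigen presentation 0 and 1 of 50. Toll-like receptor 4 signalling (96 regions) and lipid handling (85 regions) had none in either direction, which allows a share of up to 3.12% and 3.53%, above the background. The 530 gained regions fell to 513 nearest genes, 16 of them with more than 1, and the 740 lost regions to 719 genes, 21 with more than 1, while 22 genes had regions in both sets.

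In regions called at both ages, median rank was higher at 14 months for distal regions and lower for promoters. In the 24371 regions called in all 4 lists, the rank within a list was turned into a normal score (mean 0, SD 1), and the score of 3 months was subtracted from that of 14 months. The median difference was 0.02 over all regions, 0.11 over 14050 distal regions and -0.07 over 10321 promoters. Taken for each of the 4 pairs of a 14-month with a 3-month library, which share libraries and are not independent, the distal median ranged from 0.09 to 0.13 and the promoter median from -0.08 to -0.05. Between libraries of the same age the distal medians were -0.02 and -0.02, and the promoter medians -0.04 and 0.00.

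Distal regions with AP-1 and NF-kB matches had the highest medians among the 15 motifs. The median difference was 0.20 over 2719 distal regions with AP-1 (0.14 to 0.26 over the pairs, and above 0 in 80.4% of regions) and 0.19 over 1072 with NF-kB (0.16 to 0.22). Between libraries of the same age the AP-1 medians were -0.07 and -0.06, smaller than any pair across ages. Distal PU.1 regions stood at 0.12, close to all distal regions, and distal CTCF regions at 0.05 with a sign that followed the 14-month library (-0.01 and -0.03 for the first, 0.12 and 0.12 for the second). In the 21764 of these regions also called in all 4 PBS lists of 3 and 14 months, the distal AP-1 median was 0.19 after LPS (0.14 to 0.25) and 0.01 after PBS (-0.02 to 0.05), and the distal NF-kB median 0.20 after LPS and 0.08 after PBS (0.05 to 0.12). The promoter medians were -0.07 after LPS and -0.01 after PBS. The differences between LPS and PBS were not tested.

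**Figure D5:**
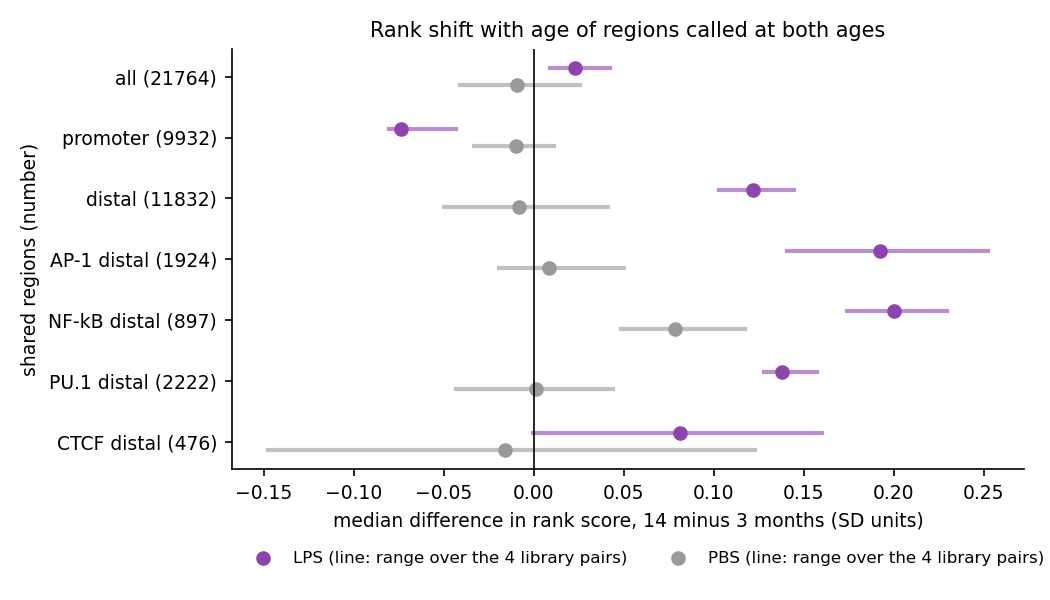
Median difference in rank score between 14 and 3 months (x axis, SD units) for groups of regions called in all 8 LPS and PBS lists of both ages (y axis, number of regions in brackets); points are medians after LPS (purple) and PBS (grey) and lines the range over the 4 library pairs. After LPS, distal AP-1 regions stood at 0.19 and promoters at -0.07, while after PBS both lay near 0.

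No single shared region passed the test. With limma on the rank scores (Benjamini-Hochberg adjusted p under 0.05 over 24371 regions) 0 regions were higher and 0 lower at 14 months, 0% in each direction, and the lowest adjusted p was 0.209. At an unadjusted p under 0.05, 2116 regions were higher (8.68%) and 1922 lower (7.89%). With no difference between ages, 2.5% per direction would be at such a p. The SD over regions of the difference between the means of the 2 libraries per age was 0.355, against the 0.244 that the differences between libraries of the same age alone (SD 0.321 at 3 and 0.368 at 14 months) would give. Pearson correlations of the rank scores over regions, which are not independent, were 0.948 and 0.932 within ages and 0.884 to 0.927 across.

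The regions with the lowest unadjusted p are given as values only and were chosen after they were seen. The promoter of Ccl22, a chemokine gene near Ccl17 (chr8:94745379-94745726), stood at percentiles of 3.49 and 5.77 at 3 months and 29.9 and 29.2 at 14 months. A first-intron region of Selplg, which encodes the ligand PSGL-1, stood at 16.2 and 18.3 against 47.8 and 51.6, and one near Tgfbr1, a receptor of the homeostatic signal TGF-β, at 3.03 and 3.38 against 18.1 and 19.5. On the other side, the promoter of Phtf1 stood at 83.9 and 83.0 against 40.04 and 42.2. A broad region 5710 bp from Socs3, a feedback inhibitor of cytokine signalling, stayed near the top of all lists, at 99.97 and 99.96 against 98.6 and 98.8. In these examples the libraries of an age stood close together, and none passed the adjusted threshold. Of the gene lists, the shared regions of cytokines and chemokines had the highest median score difference, 0.12 over 68 regions (0.04 to 0.19 over the pairs, with -0.05 and -0.07 within ages), and those of the interferon response the lowest, -0.02 over 58 regions, with a sign that differed between pairs.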

How the data were processed

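ATAC-seq peak lists of 12 libraries were used, 4 of them for the comparison. The authors trimmed reads with Cutadapt 2.8, aligned them to mm10 with Bowtie2 2.4.1, removed duplicates with SAMtools, filtered mitochondrial and blacklisted reads and called peaks per library with Genrich (versions of SAMtools and Genrich not given in the sources used here). In the deposited lists, column 7 is the peak area, a score summed by the authors' caller over the length of a peak and not normalized between libraries, and column 8 is the −log10 p of the summit as deposited; column 9 holds no value, so the alternative by summit significance used column 8. The lists hold no read counts: depth is unknown, and no count test was possible. Libraries were grouped by title, and the replicate numbers of the 2 ages share only a number.

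Peaks outside the autosomes, X and Y were dropped (31 to 40 in each of the 4 compared lists). Ranks are percentiles of the area within a list. Regions were annotated with GENCODE vM21 basic (promoter: within 1000 bp of a TSS), and 15 motifs were searched on both strands in the 301 bp around the summit, where matches of different motifs may share bases: AP-1 TGANTCA, CRE TGACGTCA, PU.1 AGAGGAAG, C/EBP TTGCNNAA, STAT TTCNNNGAA, IRF GAAANNGAA, RUNX TGTGGTT, MAF TGCTGAC, E-box CACGTG, EGR GCGTGGG, SP1 GGGCGGGG, GRE ACANNNTGT, and the NF-kB, MEF2 and CTCF consensus. Shared regions were tested with limma 3.58.1 in R 4.3.3, and both the calling and the fit were tested on simulated data. Shares and floors of 3 counts cover counting error only, since regions are not replicates, and the p-values measure the spread between pools. The members, gene lists and tests were chosen with earlier results of these data known. Named regions were the first 12 per direction called at both list lengths and up to 4 per list and direction, and 6 per direction past the limma threshold (none passed). Alternatives were other list lengths, scores, overlaps and region definitions, each library left out, and a fit with a replicate block.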

Additional observations from a re-analysis of the deposited data

Results flagged for a closer look

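Regions whose age pattern was opposite in LPS and PBS drew attention because the calls in the libraries of one treatment ran against those of the other. The difference was not tested, and it is one of calls at the cut. All 5 gained regions below had a peak under the cut in both 3-month LPS lists. Of the 7 lost ones, all but the one near Top3a had such a peak in the first 14-month LPS list. Of regions gained with age after LPS, 5 were lost with age after PBS (0.943%, against 0.687% of all regions), with Mir1931, Gm37706, Liph, Snx20 and Klf2 as the nearest genes. Of regions lost with age after LPS, 7 were gained with age after PBS (0.946%, against 1.01% of all regions), with Gm44835, Top3a, Gm12925, Firre, Pdcd1, Mir203 and Gm38414 as the nearest genes. Both shares are near those of all regions. The region near Mir1931 stood highest of the first kind, at percentiles of 18.02 and 20.4 in the 14-month LPS lists and 16.9 and 12.04 in the 3-month PBS lists, and the one in Pdcd1, an inhibitory receptor gene, was lost at 6.17 and 16.2 and called in 14-month PBS at 9.54 and 26.1. On the scale of the full LPS lists the Mir1931 region stood at 36.2 and 20.4 at 14 months and at 26.0 and 21.3 at 3 months, which overlap. All 12 ranked low in the lists.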

How the results depend on the processing

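Of 98 alternative values of the comparison's results, 57 stayed close to the reported one and 41 moved. The 57 include all alternative limma counts, none of which differed from the reported one. Among the values for gained and lost regions alone, more moved than stayed. The higher AP-1 share of gained than of lost regions held under every alternative. With full-length lists, gained and lost regions were 48 and 2481, the AP-1 share of gained regions 35.4%, the promoter share of lost regions 21.6% and their share in neither 24-month LPS list 19.3%. With the top 20000 peaks, promoters were 7.89% of gained and 60.6% of lost regions, 5.10% of gained regions were in both and 6.77% of lost regions in neither 24-month list. Cut by summit significance, lost regions held 34.1% promoters and 5.51% AP-1 matches, and 14.8% were in neither 24-month list; with calls that cover 0.5 of a region, 48.4% were promoters and 8.01% in neither 24-month list. With summit windows, gained regions held 22.1% promoters and 25.1% were in both 24-month lists. One library left out, which needs 1 call fewer, gave 980 to 1314 gained regions (980 and 1130 without the first and second 3-month, 1314 and 1171 without the first and second 14-month library) and 1286 to 1680 lost regions (1374, 1572, 1680 and 1286). The AP-1 share of gained regions was then 21.9% to 27.7%, the promoter share of lost regions 30.9% to 34.8%, gained regions in both 24-month lists 6.39% to 21.6% and lost regions in neither 7.26% to 23.6%. With the short list set aside and the other 3 cut to 36699 peaks, chosen after seeing the data, gained and lost were 1547 and 1606, AP-1 19.8%, gained in both 24-month lists 5.56% and lost promoters 23.8%. The cause of these moves was not tested, except that the cut itself sets which weak peaks remain. Of the 18 named gained and 33 named lost regions, 3 and 13 were called at full length, 2 and 3 with the top 20000 peaks, and 9 and 15 when cut by summit significance. The Mepe and Pdf regions were among those that lost their call there. In limma, 0 regions passed in either direction under all alternatives. With a replicate block, 0 were higher and 0 lower, and 1942 and 1823 at an unadjusted p under 0.05; deviations of same-numbered libraries correlated at 0.0545, so the numbers do not pair them. The unknown depth limits every presence call, and 2 pools per age limit the tests.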
